A study of Mus musculus with 6 samples.

Results

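The genes described here are the small nucleolar RNA (snoRNA) genes of mouse quadriceps muscle, taken as every row of the gene count files whose symbol begins with Snora or Snord followed by a digit. The rule found 114 genes among 27179, of which 38 were H/ACA box genes (Snora) and 76 were C/D box genes (Snord). Total RNA was sequenced from 6 libraries, 3 from control mice (libraries B, C and D) and 3 from miDrp1KO mice (libraries A, E and F). The miDrp1KO mice carried floxed alleles of Dnm1l, which encodes the mitochondrial fission GTPase Drp1, together with HSA-MerCreMer, a tamoxifen-inducible Cre driven by the human skeletal actin (ACTA1) promoter, which directs the deletion to skeletal muscle fibres. Controls were labelled f/f, and the methods give floxed genotypes (flox/+ or flox/flox) without naming Cre in them. By the methods, males of both groups received tamoxifen at 3 months of age, and by the labels all were on a normal chow diet; muscle was taken 3 weeks after deletion. Nothing in the labels links a library to litter, day or sequencing pool.

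snoRNAs are short RNAs of the nucleolus that guide chemical modification of other RNAs, chiefly ribosomal RNA. H/ACA box snoRNAs pair with their target to direct pseudouridylation by the enzyme Dkc1, and C/D box snoRNAs direct methylation of the ribose by fibrillarin (Fbl). A few members of each class act instead in the cleavage of the ribosomal RNA precursor. Most snoRNAs of mammals are cut out of introns of host genes, many of which encode ribosomal proteins or are long noncoding RNAs named for the snoRNAs they carry.

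Most of the RNAs on which the results below turn are printed first, to show how the classes differ and how alike some members are. Snora74a is not printed. Sequences and coordinates are those of the GENCODE M21 transcripts (GRCm38), written 5′ to 3′. Capitals mark the letters TGATGA (C box) in the first 20 bases and CTGA (D box) in the last 15 bases of C/D box RNAs, and ACA placed exactly 3 bases from the 3′ end of H/ACA box RNAs. Snora73a (chr4:132352775-132352979, minus strand), Snora23 (chr7:110046364-110046547, plus strand) and Snora65 (chr2:32963291-32963420, plus strand) are the H/ACA box RNAs shown. Snord17 (chr2:144265979-144266216, minus strand) and Snord15b (chr7:99479563-99479707, minus strand) are the C/D box RNAs with the highest level per length, and Snord14c (chr9:40803583-40803668, plus strand) and Snord14d (chr9:40803995-40804080, plus strand) are a near-identical pair from the same host.
Snora73a: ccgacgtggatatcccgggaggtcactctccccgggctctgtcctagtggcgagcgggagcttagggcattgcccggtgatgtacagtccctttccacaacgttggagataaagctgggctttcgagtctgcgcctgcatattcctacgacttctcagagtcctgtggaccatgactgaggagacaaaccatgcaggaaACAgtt
Snora23: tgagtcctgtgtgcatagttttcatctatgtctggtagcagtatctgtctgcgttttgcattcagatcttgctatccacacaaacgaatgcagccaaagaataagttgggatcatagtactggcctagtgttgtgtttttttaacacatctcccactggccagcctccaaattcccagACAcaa
Snora65: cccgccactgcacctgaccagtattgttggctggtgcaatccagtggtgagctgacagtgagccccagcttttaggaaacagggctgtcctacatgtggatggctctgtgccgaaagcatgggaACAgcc
Snord17: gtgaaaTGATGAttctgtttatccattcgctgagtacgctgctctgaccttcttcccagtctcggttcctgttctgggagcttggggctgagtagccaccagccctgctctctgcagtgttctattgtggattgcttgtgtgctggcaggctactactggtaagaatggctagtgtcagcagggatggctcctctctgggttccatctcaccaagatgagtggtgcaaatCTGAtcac
Snord15b: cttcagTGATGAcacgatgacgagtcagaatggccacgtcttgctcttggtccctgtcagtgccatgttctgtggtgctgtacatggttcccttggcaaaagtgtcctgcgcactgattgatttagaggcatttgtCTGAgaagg
Snord14c: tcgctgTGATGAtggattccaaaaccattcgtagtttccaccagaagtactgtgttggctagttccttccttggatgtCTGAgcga
Snord14d: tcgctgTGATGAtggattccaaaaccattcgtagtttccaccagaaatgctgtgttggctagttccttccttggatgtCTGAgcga

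Most members held the boxes of their class. Of the 112 members with a GENCODE transcript, 74 were C/D box genes, of which 47 held TGATGA (63.5%), 68 held CTGA (91.9%) and 45 held both (60.8%). Of the 38 H/ACA box RNAs, 32 held ACA at the set place (84.2%), whereas no C/D box RNA did. Among the 140209 other GENCODE transcripts, the same windows held TGATGA in 0.471%, CTGA in 6.84%, both in 0.0378% and ACA in 2.26%. Only the transcribed strand was searched, because the boxes are read in the RNA. CTGA and TGATGA share the letters TGA but were sought at opposite ends. The match describes the letters alone.

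Several members are near copies of each other, so that their counts are uncertain. Of the 112 sequences, 5 pairs were at least 90% identical. Snora73a and Snora73b were 96.6% identical and both lie in Snhg3, yet Snora73a had 2791 counts over the 6 libraries and Snora73b had 0. Snord14c and Snord14d were 97.7% identical, with 67 and 69 counts. The other pairs (Snord1b with Snord1c, Snord88a with Snord88c, Snord116l1 with Snord116l2) had at most 10 counts a gene. How the counting treated reads that fit more than 1 place is not given in the sources used here.

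The libraries held between 13989588 (C) and 62042255 (D) counts. Dnm1l, the deleted gene, stood at 156, 114 and 140 counts per 1000000 (CPM) in control B, C and D, against 70.6, 81.3 and 66.2 CPM in miDrp1KO A, E and F. CPM here are counts divided by the library size after TMM scaling, a normalization that corrects for differences in composition. The groups did not overlap, with a log2 fold change of -0.91 (SE 0.182), although the adjusted p was 0.362 in edgeR's quasi-likelihood test over 16483 genes. DESeq2, used as an alternative test, gave Dnm1l an adjusted p of 0.00534. The Dnm1l count covers the whole gene and all cells of the muscle. The tissue label was checked against its markers, and all 12 skeletal muscle fibre markers were measured, at a summed 159844 to 179338 CPM in control and 79708 to 137424 CPM in miDrp1KO libraries. Of these 12, 11 were lower and 4 were lower at an unadjusted p under 0.05, with none called by edgeR after adjustment; of all 16483 tested genes 7911 had a negative log2 fold change and 6.22% were lower at that threshold. Fewer fibres and less of these RNAs per fibre cannot be told apart in bulk muscle.

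Control C and miDrp1KO A stood apart together from the other 4 libraries, across the groups. Over all tested genes (log2 of CPM plus 0.5) their Pearson correlation was 0.985, higher than that of either with any other library (at most 0.979) and second of the 15 pairs of libraries to control B with control D (0.987). Both lay more than 2-fold below each of the other 4 libraries for 120 genes and more than 2-fold above for 17, whereas no other pair exceeded 13 in either direction. Hspa8, which hosts several snoRNA genes, stood at 231 CPM in C and 213 CPM in A and at 730 to 1029 CPM in the others. Nothing in the labels names what these libraries share. Results are therefore also given without C and A, or with the pair as a term in the fit, both chosen after the data were seen; leaving out the most alike libraries of opposite groups can by construction widen a difference.

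Markers of other cells were also read, and their part in the results was not tested. Summed over 6 fibroblast markers the level was 1218 to 1714 CPM in control and 1347 to 2291 CPM in miDrp1KO libraries, and the 5 endothelial markers gave 142 to 255 and 142 to 228 CPM. The 4 red blood cell markers with a row gave 47.2 to 272 and 73.1 to 231 CPM. The 5 macrophage markers gave 111 to 213 and 177 to 189 CPM, and the 5 Schwann cell markers 34.9 to 46.9 and 38.5 to 67.3 CPM. Of these lists only the adipocyte markers did not overlap between groups, at 406 to 642 CPM in control and 275 to 384 CPM in miDrp1KO libraries, with all 5 lower and 3 at an unadjusted p under 0.05. Among all tested genes 48.0% were lower and 6.22% were lower at that threshold.

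Rn45s, the row of the ribosomal RNA precursor that snoRNAs modify, took a very uneven share of the libraries. It made up 14.2%, 6.92% and 3.04% of the counts in control libraries B, C and D. In miDrp1KO libraries A, E and F it made up 19.8%, 1.36% and 22.0%. The Wilson 95% intervals were at most 0.0363 percentage points wide, and like every interval here cover counting error only. The group means were 8.05% ± 5.66 and 14.4% ± 11.4 (SD, n = 3 each), and the difference was within the spread between libraries (two-sided exact permutation test, p = 0.4, where 0.1 is the smallest that 3 against 3 can give). Because ribosomal RNA was removed before sequencing, the share also depends on how completely that was done in each library. This cannot be told apart here from the amount of ribosomal RNA, mature or precursor, in the muscle. The share is therefore not a measure of the precursor alone.

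Both classes of snoRNA gene were counted at low depth. All members together had 1066 (C) to 4987 (E) counts in a library. H/ACA box genes held 28.4, 49.5 and 35.6 of every 1000000 counts in control B, C and D, with exact 95% intervals of 26.3 to 30.5, 45.9 to 53.4 and 34.1 to 37.1. In miDrp1KO A, E and F they held 46.6, 115 and 76.8, with intervals of 43.9 to 49.4, 111 to 119 and 73.0 to 80.7. On this scale control C stood above miDrp1KO A, so the groups overlapped.

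C/D box genes made up a smaller share of every library. Per 1000000 counts they held 18.4, 26.7 and 18.6 in control B, C and D. In miDrp1KO A, E and F they held 26.7, 57.9 and 57.9. Control C and miDrp1KO A were alike, and E and F stood apart from the other 4 libraries.

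After TMM scaling, no control library reached a miDrp1KO library in either class sum, although control C and miDrp1KO A lay close together. The summed H/ACA level was 33.8, 50.5 and 36.7 CPM in control libraries and 55.2, 81.3 and 73.8 CPM in miDrp1KO libraries, which is 1.74-fold as a ratio of means. The summed C/D level was 22.0, 27.2 and 19.2 CPM against 31.5, 40.9 and 55.7 CPM, a ratio of 1.87. Between C and A alone the ratios were 1.09 and 1.16, and among the other 4 libraries they were 2.20 and 2.35. Single genes weighed heavily in these sums: Snora74a and Snora73a held 48.9% to 70.5% of the H/ACA counts of a library, and Snord17 held 31.9% to 68.1% of the C/D counts. Without Snora74a and Snora73a the H/ACA sums were 17.3, 18.1 and 15.1 CPM in control and 23.7, 26.4 and 21.8 CPM in miDrp1KO libraries (ratio 1.42). Without Snord17 the C/D sums were 14.96, 14.3 and 13.0 against 16.4, 19.6 and 17.8 CPM (ratio 1.28). These reduced sums were chosen after the values were seen. The libraries did not follow the order of the Rn45s share: miDrp1KO E, with the lowest Rn45s share, had the highest H/ACA sum, and miDrp1KO F, with the highest share, had the highest C/D sum. The members and their sums were chosen with results known, and no test was made on a sum.

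**Figure D1:**
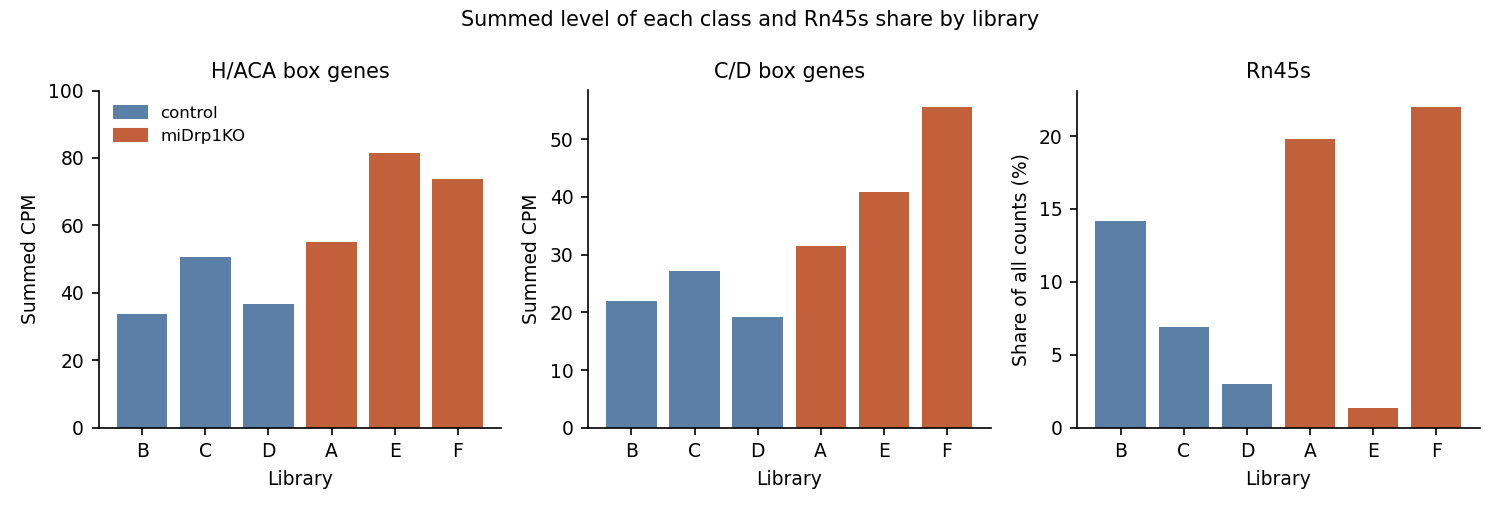
Summed TMM-scaled CPM of the 38 H/ACA box genes and the 76 C/D box genes, and the Rn45s share of all counts in percent, in each library (bars, 1 library each). The miDrp1KO libraries stand above the control libraries in both sums, by the least for A, while the Rn45s share ranges from 1.36% in E to 22.0% in F.

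Most members were seen in few reads. In all, 106 members had a count in at least 1 library, 35 H/ACA and 71 C/D box genes, and 26 and 29 of them had one in every library. The 8 members listed at 0 throughout were Snora24, Snora26, Snora73b, Snord1a, Snord7, Snord45c, Snord93 and Snord116l2. The floor of 3 counts in a library stood between 0.05 CPM (D) and 0.219 CPM (C), so that lower levels were not detectable at this depth. The median total over 6 libraries was 47.5 counts for an H/ACA and 16.5 counts for a C/D box gene. A filter on low counts left 24 members for testing, 15 H/ACA and 9 C/D box genes, and the other 90 had at most 71 counts in all.

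Counts went mainly to the longest RNAs. The 9 members with 140 bases or more (6 H/ACA and 3 C/D) held 71.7% of all member counts, although 43 members were under 70 bases, 32 had 70 to 99 and 30 had 100 to 139 bases. Compared per length, the median level was 1.88 CPM per 100 bases in the longest group, against 0.224 under 70 bases, 0.0772 from 70 to 99 and 0.181 from 100 to 139 bases. Lengths here are those of RefSeq. GENCODE gave a length for 112 members, longer for 87, and by their lengths 11, 52, 39 and 10 members fell in the same 4 length classes, with median levels of 0.141, 0.126, 0.146 and 1.78 CPM per 100 bases. The longest class stood highest and held most counts by either length, whereas the order of the shorter classes differed. H/ACA box genes (median 120.5 bases) were longer than C/D box genes (median 68 bases), so class and length cannot be told apart here. The tested members of 140 bases or more had a median log2 fold change of 0.90, with 5 of 8 higher at an unadjusted p under 0.05, where 4.68% of all tested genes were higher. The median was 0.86 from 70 to 99 bases (1 of 4 higher), 0.46 from 100 to 139 bases (1 of 9) and -0.45 under 70 bases (0 of 3). These medians use RefSeq lengths only. By GENCODE, Snord111 has 89 and Snord99 has 74 bases, which leaves only Snord2 (69 bases) of these 3 under 70 bases. Snora68 (131 bases), Snora78 (128 bases) and Snora7a (140 bases) also change class.

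**Figure D2:**
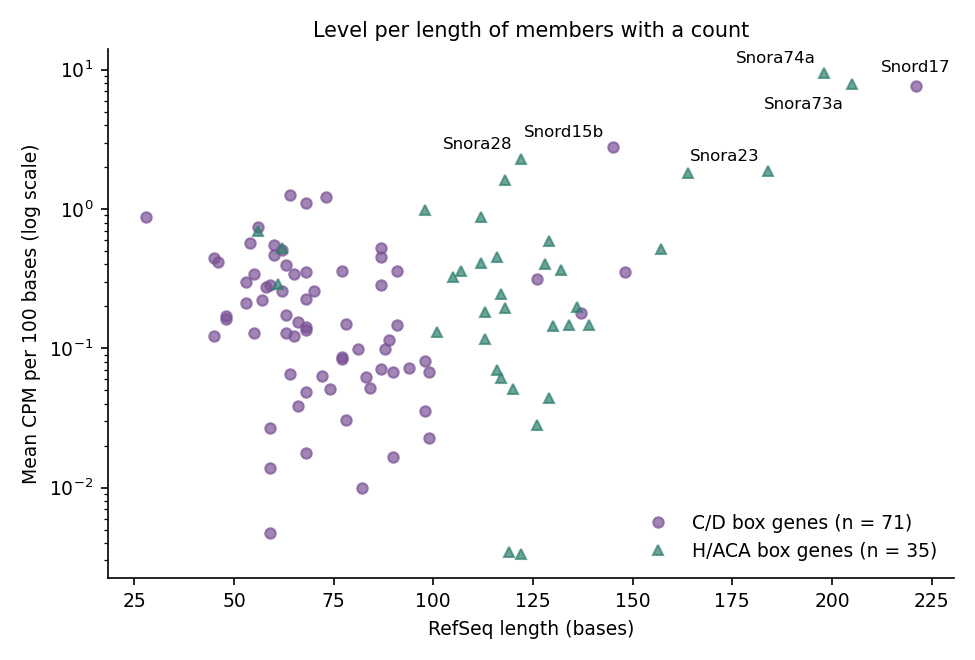
Mean TMM-scaled CPM over the 6 libraries per 100 bases (log scale) against RefSeq length in bases, for the 106 members with a count. Snora74a, Snora73a and Snord17 lie at the upper right, near 200 bases and above 7 CPM per 100 bases.

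No member was called at an adjusted p under 0.05 by edgeR, where 0.0121% of all tested genes were called (2 of 16483). At an unadjusted p under 0.05, 7 of 24 members (29.2%) were higher in miDrp1KO and 0 were lower. Among all tested genes 4.68% were higher and 6.22% were lower at that threshold. All 3 miDrp1KO libraries lay above all 3 control libraries for 8 of 24 members (33.3%), against 7.67% of all tested genes, and below them for 1 member, against 10.3%. By class, 4 of 15 H/ACA and 3 of 9 C/D box genes passed the unadjusted threshold. The median log2 fold change was 0.48 for H/ACA and 0.63 for C/D box genes, against 0.02 for all tested genes and 0.10 for the 11200 tested genes with a mean level in the members' range. The C/D median rests on 9 of 76 genes, and with no filter on low counts it was 0.080 over 71 genes. The summed level of the C/D box genes left untested was 1.15 times that of control. The members share libraries and were chosen with results known, so these shares are a description. DESeq2 called 2 members, Snord17 and Snora74a, with its independent filtering, under which only 3 of the 24 received an adjusted p, and 1 without it (Snord17), while limma voom called 0. Without control D the unadjusted count was 2, and without miDrp1KO E it was 4 with a C/D median log2 fold change of -0.0070. With control C and miDrp1KO A as a term, edgeR called 0 members (0.0789% of all tested genes), and 8 were higher at the unadjusted threshold (6.91% of all). Without these libraries it called 3 of 36 members tested, Snora74a, Snora73a and Snord17 (0.921% of all genes tested there), and 9 were higher at the unadjusted threshold (8.22% of all). A lay above C for 18 of the 24 tested members (75.0%, against 49.6% of all tested genes), and E and F both lay above B and D for 13 (54.2%, against 24.8%).

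**Figure D3:**
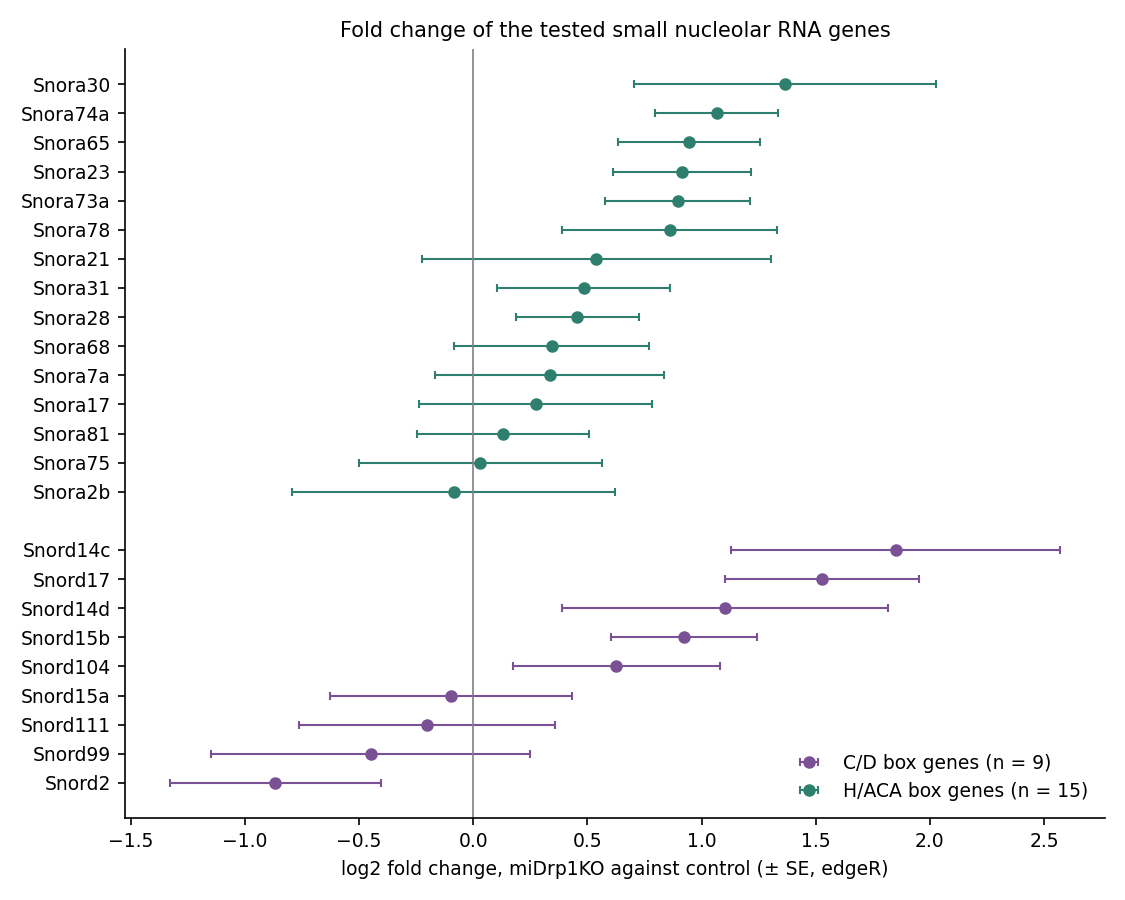
log2 fold change of miDrp1KO against control (points) with its SE (bars) from edgeR for the 15 H/ACA and 9 C/D box genes tested. Of the H/ACA box genes 14 lie above 0, whereas the C/D box genes split into 5 above and 4 below.

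Among H/ACA box genes, Snora74a and Snora73a had the highest levels per length, with means of 9.43 and 7.89 CPM per 100 bases. Snora74a, in the noncoding host Snhg4 on chromosome 18, had 200, 212 and 686 counts in control B, C and D and 329, 1235 and 612 counts in miDrp1KO A, E and F. After scaling these were 9.47, 15.4 and 11.4 CPM against 16.0, 30.3 and 29.4 CPM. The groups did not overlap, but miDrp1KO A exceeded control C only slightly. The log2 fold change was 1.07 (SE 0.268), with an unadjusted p of 0.0028 and an adjusted p of 0.362 by edgeR. DESeq2 gave an adjusted p of 0.0437, and over all 17 alternatives the adjusted p ran from 0.0127 (without control C and miDrp1KO A) to 0.877.

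Snora73a belongs to the snoRNAs known to act in cleavage of the ribosomal RNA precursor (E1 or U17 RNA). It stood at 7.06, 16.9 and 10.2 CPM in control B, C and D and at 15.5, 24.7 and 22.7 CPM in miDrp1KO A, E and F. Control C lay above miDrp1KO A, so the groups overlapped. The log2 fold change was 0.89 (SE 0.316, unadjusted p = 0.0208, adjusted p = 0.393 by edgeR). Over 17 alternatives the adjusted p ran from 0.0258 (without control C and miDrp1KO A, log2 fold change 1.42) to 0.877.

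The other 2 H/ACA box genes past the unadjusted threshold did not overlap between groups. Snora23, a guide RNA in an intron of Ipo7, stood at 2.65, 2.92 and 1.75 CPM in control and 4.37, 5.86 and 3.17 CPM in miDrp1KO libraries, a log2 fold change of 0.92 (SE 0.303). Snora65, inside Rpl12, stood at 1.37, 1.46 and 1.08 CPM against 2.14, 2.23 and 3.07 CPM, a log2 fold change of 0.95 (SE 0.311). Their adjusted p was 0.382 for both by edgeR.

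Snora81 and Snora28 complete the 5 H/ACA box genes of highest mean CPM, at 1.83 and 2.28 CPM per 100 bases. Snora81, in Eif4a2, overlapped widely, at 2.27, 4.08 and 2.38 CPM in control and 3.35, 4.31 and 1.58 CPM in miDrp1KO libraries (log2 fold change 0.13, SE 0.377). Snora28, in Eif5, stood at 2.51, 2.70 and 1.88 CPM against 2.67, 3.21 and 3.70 CPM (log2 fold change 0.46, SE 0.269), with control C just above miDrp1KO A. The remaining 9 tested H/ACA box genes had log2 fold changes from -0.09 (Snora2b) to 1.37 (Snora30), the latter with an unadjusted p of 0.0629 and 3 to 22 counts a library. Both were named after their values were seen.

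Among C/D box genes, Snord17 had the highest level per length, a mean of 7.58 CPM per 100 bases. Its counts were 148, 177 and 375 in control B, C and D and 311, 868 and 790 in miDrp1KO A, E and F. The scaled levels were 7.01, 12.9 and 6.25 CPM against 15.1, 21.3 and 37.9 CPM. The groups did not overlap, and F stood well above A and E. The log2 fold change was 1.53 (SE 0.424), with an unadjusted p of 0.0096 and an adjusted p of 0.382 by edgeR. DESeq2, which called 0.7% of the genes it gave an adjusted p, gave 0.0101 for Snord17, and over all 17 alternatives the adjusted p ran from 0.0101 to 0.877.

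Snord15b and Snord15a lie in the same host, Rps3. Snord15b stood at 4.02, 2.33 and 2.10 CPM in control and 4.18, 7.30 and 4.32 CPM in miDrp1KO libraries. Its groups did not overlap, by a small margin between control B and miDrp1KO A, and the log2 fold change was 0.92 (SE 0.32, unadjusted p = 0.0146, adjusted p = 0.392 by edgeR). Snord15a stood at 0.426, 0.729 and 0.5 CPM against 0.583, 0.613 and 0.288 CPM (log2 fold change -0.10, SE 0.531), and it ran from -0.31 to 0.17 over the alternatives.

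Snord14c and Snord14d lie in Hspa8 and belong to the U14 RNAs, which take part in precursor cleavage and also guide methylation. Snord14c had 4, 6 and 4 counts in control and 19, 21 and 13 counts in miDrp1KO libraries, a log2 fold change of 1.85 (SE 0.721, unadjusted p = 0.0259, adjusted p = 0.409 by edgeR). It was 2.56 without control C and 1.18 without control D. Snord14d had 8, 0 and 18 counts against 11, 17 and 15 counts, a log2 fold change of 1.10 (SE 0.712), which ran from 0.69 to 1.47 over the alternatives. The groups did not overlap on the CPM scale for either. The sequences printed above are 97.7% identical, and a read from a stretch that they share fits both genes.

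The remaining 3 of the 5 C/D box genes of highest mean CPM did not pass the unadjusted threshold. Snord104, which has no host, stood at 0.616, 1.02 and 0.516 CPM in control and 1.41, 0.882 and 0.912 CPM in miDrp1KO libraries (log2 fold change 0.63, SE 0.452). Snord111, in Sf3b3, overlapped between groups (log2 fold change -0.20, SE 0.56). Snord2, in Eif4a2, was the only tested member below all controls, at 0.71, 1.38 and 0.85 CPM against 0.535, 0.588 and 0.432 CPM. Its log2 fold change of -0.87 (SE 0.462) had an unadjusted p of 0.0874.

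**Figure D4:**
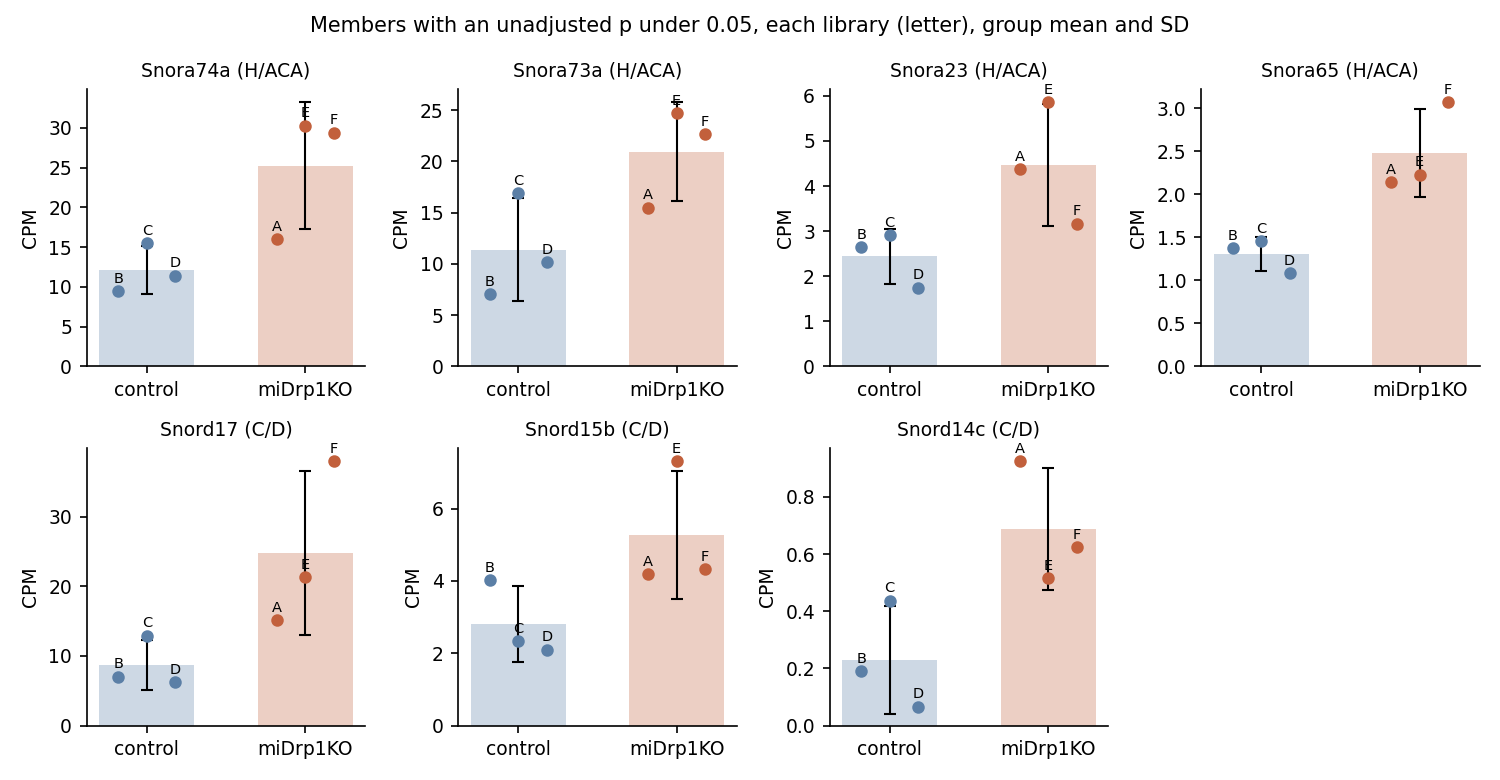
TMM-scaled CPM of the 7 members with an unadjusted p under 0.05 in each library (points, library letter), with the group mean (bar) and SD (whisker, n = 3). In 6 of the 7 panels every miDrp1KO point lies above every control point; in Snora73a control C lies above miDrp1KO A.

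The snoRNAs known to act in precursor cleavage were read as a group. Of 14 names listed, 9 had a row and 3 passed the filter on low counts (Snora73a and the near-identical Snord14c and Snord14d). Their log2 fold changes were positive, as were 52.0% of those of all tested genes. The others were too sparse to compare. Snord118, the U8 RNA, had 4, 1 and 7 counts in control and 2, 23 and 9 counts in miDrp1KO libraries. Snord22 had 4, 3 and 17 counts against 14, 25 and 8. Snord13, Snord14a and Snord14e had 17, 9 and 59 counts in all. U3 RNA is listed in 5 rows under Rnu3 symbols and is thus outside the rule. Rnu3a stood at 0.71, 0.292 and 0.616 CPM in control and 0.875, 2.60 and 1.06 CPM in miDrp1KO libraries. Rnu3b2, the U3 row with most counts, was read after its values were seen and stood at 11.1, 12.6 and 9.43 CPM against 15.2, 32.5 and 20.5 CPM (log2 fold change 1.05, SE 0.263, adjusted p = 0.362 by edgeR and 0.0437 by DESeq2). Rnu3b3, also tested, overlapped between groups, at 0.805, 0.146 and 0.6 CPM in control against 0.243, 2.48 and 2.21 CPM in miDrp1KO libraries. Rnu3b1 and Rnu3b4 were not tested and had 0 counts in miDrp1KO A, and Rnu3b4 also in control C. How reads that fit more than 1 U3 row were counted is not given in the sources used here.

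Groups of snoRNA genes that share a host were mostly at the limit of detection. The 4 genes of Rpl13a (Snord32a, Snord33, Snord34 and Snord35a) had 33 counts over 6 libraries, and Snord47 of Gas5 had 50. The 4 genes of Snhg12 (Snord99, Snora61, Snora44 and Snora16a) had 227 counts, of which only Snord99 was tested (log2 fold change -0.45, SE 0.7, but -1.11 without miDrp1KO F and 0.19 without control C and miDrp1KO A). Snord2 and Snora81 of Eif4a2 had 654 counts. Snord57 and Snord110 of Nop56 had 50. Of the imprinted clusters 4 genes were listed with 46 counts, 33 of them from Snord64; Snord116 had 5 counts in each of miDrp1KO E and F and 0 in the other 4 libraries.

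To see whether snoRNA genes moved with the genes that contain them, each member was set beside its host from the same fit. For 5 members, Snora74a among them, the host came from the RefSeq interval, without a check of strand. A host with a row was found for 110 members (78 hosts, of which 59 code for protein and 23 are ribosomal protein genes). By GENCODE, 55 members lie in an intron and 51 overlap an annotated exon of a transcript of the host, where a read can belong to either gene. Among the 22 tested members with a tested host (19 hosts), 8 had both positive, 9 had a positive snoRNA with a negative host, 4 had both negative and 1 had a negative snoRNA with a positive host. The median log2 fold change was 0.47 for these members and -0.13 for their hosts, and 17 of 22 members lay above their host. The differences were not tested.

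The hosts of the leading members had log2 fold changes between -0.24 and 0.49. Snhg4, the host of Snora74a, had a log2 fold change of 0.20 (SE 0.303), and Snhg3, the host of Snora73a, one of -0.22 (SE 0.738). Snx5, a sorting nexin that hosts Snord17, had -0.15 (SE 0.172), and Ipo7, an importin that hosts Snora23, had -0.13 (SE 0.177). Hspa8, a heat shock chaperone that hosts Snord14c and Snord14d, had -0.24 (SE 0.719). Only the ribosomal protein hosts of these leading members were positive by more than 0.3, Rpl12 with 0.49 (SE 0.379) and Rps3 with 0.49 (SE 0.242). The translation factor hosts Eif4a2 and Eif5 had -0.18 (SE 0.189) and -0.08 (SE 0.194), and Sf3b3, a splicing factor subunit, had -0.15 (SE 0.219). Among the 19 hosts of tested members, 1 was higher (Tpt1, 0.71, SE 0.237) and 1 lower (Ncl, -0.52, SE 0.217) at an unadjusted p under 0.05. Over the hosts of all members, 57 coding hosts were tested, with 1 higher (Tpt1) and 5 lower (Eif3a, Eif4g1, Ncl, Tcp1 and Tsr1), and 15 hosts that do not code for protein, with 3 higher (2410006H16Rik, Snhg14 and Snhg6) and 0 lower. Among all tested genes 4.68% were higher and 6.22% lower, and edgeR called 0 of these hosts. Hosts named for passing were picked after their values were seen.

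**Figure D5:**
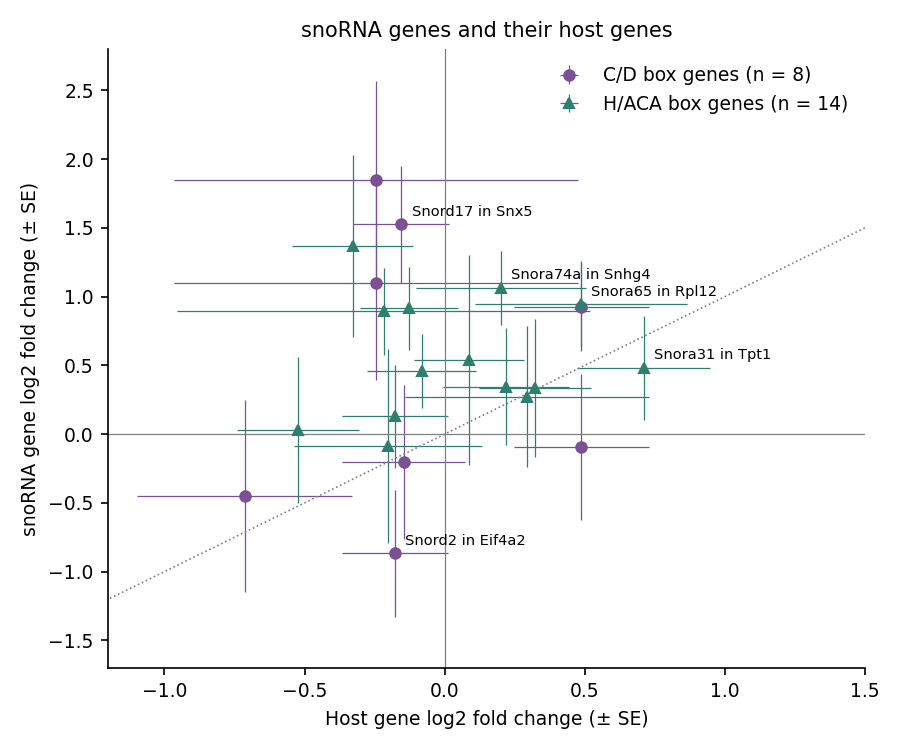
log2 fold change of 22 tested snoRNA genes against that of their host gene, each with its SE, with a dotted line where both are equal. Most points lie above the line (17 of 22), and hosts lie between -0.71 and 0.71.

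edgeR called no protein that builds snoRNPs. Of the 6 H/ACA proteins and assembly factors tested, 5 had a positive log2 fold change and 1, Nop10, was higher at an unadjusted p under 0.05. Nop10, a small core subunit, stood at 18.7, 22.0 and 17.8 CPM in control and 23.7, 23.5 and 32.1 CPM in miDrp1KO libraries (log2 fold change 0.44, SE 0.177, adjusted p = 0.416 by edgeR), and its groups did not overlap. Among all tested genes 52.0% were positive, 4.68% were higher at that threshold and 7.67% lay above all control libraries. Dkc1, the pseudouridine synthase, had -0.20 (SE 0.166). The core subunits Nhp2 and Gar1 had 0.17 (SE 0.223) and 0.06 (SE 0.339), and the assembly factors Naf1 and Shq1 had 0.28 (SE 0.263) and 0.35 (SE 0.347). Over the alternatives Dkc1 ran from -0.30 to -0.09, Naf1 from 0.13 to 0.42 and Shq1 from 0.14 to 0.58.

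The 4 C/D core proteins with a row overlapped between groups. Fbl, the methyltransferase, had a log2 fold change of 0.07 (SE 0.364), Nop56 of -0.03 (SE 0.17), Nop58 of 0.06 (SE 0.172) and Snu13 of -0.10 (SE 0.369).

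Wider lists of the pathway held 0 genes called by edgeR. Of 10 tested genes listed as snoRNP assembly or related nucleolar factors, 1 was higher at an unadjusted p under 0.05 (Znhit3, 0.50, SE 0.199). At that threshold 3 were lower, Nolc1 (-0.54, SE 0.171), Tcof1 (-0.61, SE 0.184) and Rpap3 (-0.40, SE 0.167). Of 35 proteins of the U3 processome, the particle that assembles on the precursor, 28 had a negative log2 fold change, with 3 lower at that threshold (Bms1, Nop14 and Tbl3) and 0 higher. Among all 16483 tested genes, 7911 had a negative log2 fold change, 6.22% were lower and 4.68% higher at that threshold. Of 15 tested genes for RNA polymerase I, which transcribes the precursor, and for its factors, 3 were lower (Polr1a, Cd3eap and Taf1c) and 1 was higher (Polr1c). The names in this paragraph were picked after their values were seen.

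Other short structured RNAs also had positive log2 fold changes. Among all 16483 tested genes, 8572 had a positive log2 fold change and 4.68% were higher at an unadjusted p under 0.05. Leaving out Rnu3a, which is a U3 snoRNA, all 9 small Cajal body and spliceosomal RNAs tested were positive (median 1.28), and 4 were higher at that threshold (Scarna6, Scarna13, Rnu11 and Rnu12). The groups overlapped in all 9, Rnu11 for example at 2.32 CPM in control B and 2.19 CPM in miDrp1KO A. Of 6 tested RNAs made by RNA polymerase III, all 6 were positive (median 1.11) and 4 passed (Rmrp, Rpph1, Rn7sk and Vaultrc5). Only 3 of the 6 (Rmrp, Rpph1 and Vaultrc5) lay above all control libraries, as did 7.67% of all tested genes. For Rn7sk, miDrp1KO A (4487 CPM) lay below control B (6008 CPM) and control D (6854 CPM). Rmrp, the RNA of a ribonuclease acting on the precursor, stood at 226, 310 and 234 CPM in control and 388, 645 and 851 CPM in miDrp1KO libraries (log2 fold change 1.29, SE 0.285, adjusted p = 0.362 by edgeR), and these genes were named after their values were seen. Its libraries did not overlap, and as in both class sums A was the lowest of miDrp1KO and C the highest of control. edgeR called 0 of these RNAs, whereas DESeq2 called 2 of them, Rmrp and Rpph1 (adjusted p = 0.00349 for both), and gave most of the others no adjusted p. Whether the snoRNA genes differed apart from them was not tested.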

How the data were processed

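Quadriceps RNA was extracted with TRIzol and a column kit, depleted of ribosomal RNA (RiboZero Gold) and made into stranded total RNA libraries. Columns and size selection keep short RNAs poorly, so snoRNA levels here are those of the RNA that was retained. The authors aligned reads to GRCm38 with Rsubread and deposited raw counts per gene with Entrez identifiers, 1 library a file; the submitters' processing notes also name FastQC and DESeq2 1.30.0. The methods name annotation version 97, but the files hold Entrez identifiers, so which gene intervals were counted is not certain. Settings for strand, overlapping genes and multiple hits are not given in the sources used here.

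The members and lists were chosen with earlier results of these data known. The deposited counts were tested with edgeR 4.0.16 (R 4.3.3) using quasi-likelihood fits without covariates, TMM scaling and filterByExpr, with Benjamini-Hochberg adjustment over all 16483 tested genes and a threshold of 0.05. DESeq2 1.42.0 and limma 3.58.1 (voom) were alternatives, and the test was checked on simulated data. The SE of a log2 fold change is its size over the root of F. RefSeq (GRCm38.p6) gave the length of all 114 members by Entrez identifier, and GENCODE M21 gave hosts, sequences and strand. The host is the shortest same-strand GENCODE gene that holds the snoRNA, preferring genes with a row, or for 5 members a RefSeq interval with strand not matched. A host codes for protein where GENCODE or RefSeq says so. Named genes are Dnm1l, Rn45s, in each class the 5 members of highest mean CPM and the 5 largest differences each way at an unadjusted p under 0.05, members of the precursor cleavage group, up to 4 members of each host group, the core proteins, and their hosts. The labels do not state separate mice, whereas a supplementary figure legend of the study gives n = 3 mice in each group for quadriceps transcripts. The p-values measure the spread between these libraries.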

Additional observations from a re-analysis of the deposited data

How the results depend on the processing

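Sums, their alternatives and those on control C and miDrp1KO A were chosen after seeing the data; the others were planned. Of the single-gene comparisons, 557 kept direction and side of the threshold and 9 passed it only in an alternative, by DESeq2 (Dnm1l, Snord17 and, with filtering, Snora74a) or without control C and miDrp1KO A (these genes and Snora73a). The cause of the moves below was not tested, except that other filters test other members. DESeq2 called 2 members (1 without independent filtering), against 0 by edgeR. The C/D median log2 fold change was 0.080 with no filter (71 genes), and with at least 10 counts in every library the medians were 0.95 for H/ACA (7 genes) and 0.97 for C/D (3 genes). Ratios of the summed levels were 1.42 (H/ACA) and 1.28 (C/D) without Snora74a and Snora73a or Snord17, 2.10 for H/ACA as a share of all counts, and 2.25 and 2.43 outside ribosomal RNA rows. Without control C and miDrp1KO A, 3 members were called and 1 was lower at an unadjusted p under 0.05, the H/ACA median was 0.64, the ratios of sums were 2.20 (H/ACA) and 2.35 (C/D), against 1.09 and 1.16 for these libraries alone, and Snora75 (-0.49), Snord99 (0.19), Gar1 (-0.0090) and Nop58 (-0.088) changed sign. With the pair as a term, 0 were called and Snora75 was -0.055.

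Leaving out 1 library at a time, 0 members were called in each of 6 fits, 2 to 8 were higher at an unadjusted p under 0.05 (2 without control D), and 0 to 1 were lower (1 without control C). The H/ACA median ranged from 0.51 to 0.67 and the C/D median from -0.0070 (without miDrp1KO E) to 0.86. None of the reversed single genes had an unadjusted p under 0.05 in the main comparison. Snora75 was -0.13 by voom, -0.048 with the Rn45s share as covariate and -0.36 to 0.27 over left-out libraries. Nop56 was 0.058 with upper quartile scaling, 0.0096 with at least 10 counts and -0.13 to 0.042 over left-out libraries, and Rn45s was -0.26 with its own share as covariate. Over left-out libraries the ranges were -0.21 to 0.45 for Snora81, -0.38 to 1.06 for Snora21, -1.06 to 0.39 for Snora2b, -0.80 to 0.21 for Snord111, -0.31 to 0.17 for Snord15a, -0.056 to 0.30 for Nhp2, -0.21 to 0.36 for Fbl, -0.087 to 0.18 for Nop58 and -0.47 to 0.22 for Snu13. The upper quartile scaling moved the median of all genes to 0.11. The Rn45s difference was 6.66 percentage points with the other denominator, against 6.35.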
